A study of Mus musculus with 4 samples.

Results

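Genes of hepatic insulin signalling and of the IGF binding proteins were followed in liver RNA. The group holds 9 of the 22180 genes measured, namely Insr, Irs1, Irs2, Pik3r1, Akt2, Foxo1, Igfbp1, Igfbp2 and Igfbp4, a list of names drawn up with earlier results of these data known. Each gene was read from the probe set that the platform annotation assigns to that symbol alone, and where there were several such sets, from the one with the highest mean over the arrays. The samples were 4 pools of liver RNA from C57BL/6 mice older than 2 months, with 1 Affymetrix array per pool. They came from 7 wild-type (WT) mice kept for 3 weeks on a 70% fructose diet, 7 WT mice on regular chow, 6 Chrebp-null mice fed that fructose diet for 2 weeks, and 4 WT mice fed it for 2 weeks. Each pool mixed males and females in proportions not given in the sources used here, and those sources do not describe the construction of the null allele either. The design names 2 comparisons without a common array. The fructose comparison sets the 3-week WT fructose pool against the chow pool and asks what the diet does to liver expression, and the Chrebp-null comparison sets the null pool against the 2-week WT fructose pool and asks what loss of Chrebp does on that diet.

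Insulin binds the receptor encoded by Insr, which phosphorylates the docking proteins IRS1 and IRS2. They recruit PI3-kinase through its regulatory subunit p85alpha, the product of Pik3r1, and the lipid it makes activates AKT2, the main AKT form of hepatocytes. AKT phosphorylates FOXO1 and keeps it out of the nucleus, which lowers transcription of FOXO1 targets such as Igfbp1 and Irs2. IGF binding proteins are secreted carriers that control how much IGF reaches its receptor. Igfbp1 is the one known for its fast fall after a meal, when insulin rises, and for its rise in fasting. ChREBP, encoded by Mlxipl, is a sugar-responsive transcription factor of liver.

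All values are log2 expression, and all differences are log2 differences between 2 arrays. There was no replicate array, so no difference has an error or a test, and precision is limited by having so few arrays. Pooling hides the spread between mice. In liver RNA, fewer cells of a type and less RNA per cell cannot be told apart. Genes entered a comparison when at least 1 of its arrays reached a floor of 3.52, the median level of all genes, and were counted when they differed at least 2-fold, a difference of 1 or more. All 9 genes lay above the floor on every array. Array medians ran from 3.11 to 3.17. Mlxipl (probe set 17443185) read 8.09 in the null pool, against 9.83 in the 2-week WT pool, the direction of the genotype label. Between the WT fructose pools, which share genotype and diet but not mice or weeks, the difference had a standard deviation of 0.43 over 11648 genes. It serves as a measure of how far pools can differ without chow or genotype. The sex proportions of these pools are not given and may differ too.

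In the fructose comparison the 3-week pool had lower levels of 3 of the 9 genes by at least 2-fold, Igfbp1, Irs2 and Igfbp2, and 2-fold higher levels of none. Among all 11717 genes assessed, 1.16% were at least 2-fold lower and 0.64% higher, a split of 136 against 75 that became 105 against 93 when the trend of the difference with level was removed. The median of the 9 was -0.50, beside -0.05 for all genes assessed. Of the 9, 8 were below 0 and Pik3r1 was above it, where 56.5% of all genes were below 0. In the Chrebp-null comparison none of the 9 differed 2-fold in either direction, where 2.03% of the 11631 genes assessed were at least 2-fold higher and 1.43% lower. That split, 236 against 166, became 140 against 225 with the trend removed. There the median of the 9 was -0.24, beside 0.10 for all genes, with 6 below 0 and 3 above, where 36.5% of all genes were below 0. With the 3-week WT pool in place of the 2-week one, that median was 0.15. The plot of levels shows Igfbp1, Irs2 and Igfbp2 well below chow in the 3-week pool, and Insr near one level in all pools.

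**Figure D1:**
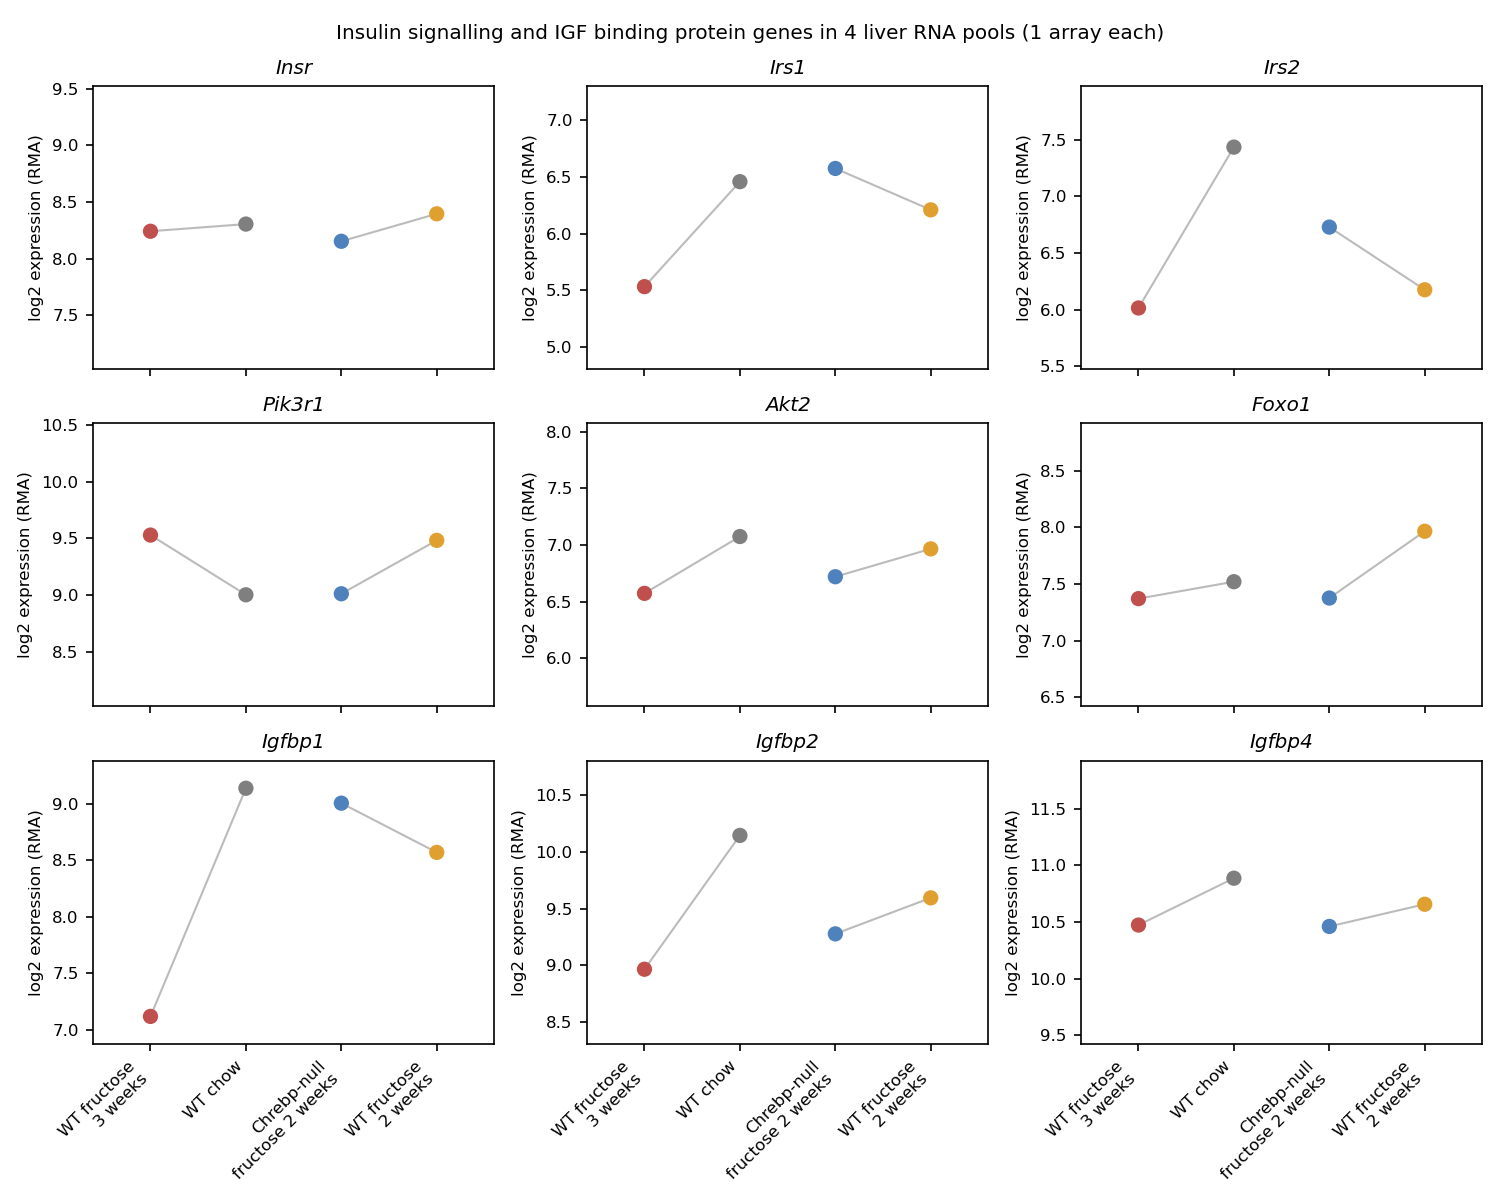
Log2 expression (RMA) of the 9 genes in the 4 pools, 1 point per array, with a grey line joining the pools of each designed comparison and the same span on every vertical axis. Igfbp1 read 7.12 in the 3-week WT fructose pool against 9.14 in the chow pool, while Insr lay between 8.15 and 8.40 in all 4.

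The receptor gene differed least of the 9 in the fructose comparison. Insr (probe set 17507057) read 8.24 in the 3-week fructose pool, against 8.30 in the chow pool, and 8.15 in the null pool, against 8.40 in the 2-week WT pool. The fructose difference was -0.06 and the null difference -0.24. Of all genes assessed, 84.3% lay at least as far from 0 as Insr in the fructose comparison.

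The docking protein genes stood apart from the receptor. Irs2 (probe set 17507374) read 6.02 in the 3-week fructose pool, against 7.44 in the chow pool, a difference of -1.42 or a ratio of 2.68. It read 6.73 in the null pool, against 6.18 in the 2-week WT pool. The chow pool was the highest of the 4, both WT fructose pools were low and within 0.16 of each other, and the null pool lay between. Ranked from the lowest, the Irs2 difference was number 28 of 11717 genes. The 2-week WT pool over chow, which shares the chow array, stood at -1.26, again past 2-fold, where 1.41% of 11622 genes were that much lower. Irs2 was the 1 gene of the 9 past 2-fold in that setting.

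Irs1 (probe set 17224878) read 5.53 in the 3-week fructose pool, against 6.46 in the chow pool, and 6.57 in the null pool, against 6.21 in the 2-week WT pool. The 3-week pool was the low one, and the other 3 lay within 0.37 of each other. Its fructose difference of -0.93, a ratio of 1.90, fell short of 2-fold, and 2.39% of genes lay at least as far from 0. The 2-week pool over chow gave -0.25. The null pool over the 3-week WT pool stood at 1.04, just past 2-fold, where 3.38% of 11772 genes were that much higher, against 0.37 over its own 2-week WT pool. A second probe set of Irs1 read between 2.72 and 3.15, below the floor in every pool, and averaging both sets gives a fructose difference of -0.25. A further set, annotated to Irs2 and to another transcript, also lay below the floor, at 2.45 to 3.24.

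The letters before the annotated starts of these genes are shown because FOXO1 is known to act on Igfbp1 and Irs2 through insulin response sequences. RefSeq (GRCm38.p6) gave starts for 8 of the 9 genes, and the 250 bases before each were searched on both strands for 5 motifs. They were CAAAACA, the core of the insulin response sequence (TGTTTTG on the other strand), GTAAACA, a forkhead motif, the full palindromic cAMP response element, its core TGACG, and the E-box CACGTG. The core CAAAACA occurs in 3 of the 8, Irs1, Irs2 and Igfbp1, and in 5.56% of 32851 promoter windows of the same length. For all motifs a gene counts if any of its starts has a match, with 13 windows for the 8 genes. The background counts single windows, so the shares are not of the same unit. Capitals mark CAAAACA below.
Irs2, chr8:11008930-11009179, minus strand: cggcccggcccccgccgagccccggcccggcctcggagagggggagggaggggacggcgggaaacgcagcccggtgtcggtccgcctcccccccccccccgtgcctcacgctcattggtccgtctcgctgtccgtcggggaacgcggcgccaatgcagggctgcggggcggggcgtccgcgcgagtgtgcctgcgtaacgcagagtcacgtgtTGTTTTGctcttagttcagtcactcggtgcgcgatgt
Irs1, chr1:82291440-82291689, minus strand: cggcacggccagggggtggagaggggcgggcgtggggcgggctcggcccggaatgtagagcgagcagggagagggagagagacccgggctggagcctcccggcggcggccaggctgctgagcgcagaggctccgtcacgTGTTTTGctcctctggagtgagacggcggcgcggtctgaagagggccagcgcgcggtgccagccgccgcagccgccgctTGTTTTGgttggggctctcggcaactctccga
Igfbp1, chr11:7197537-7197786, plus strand: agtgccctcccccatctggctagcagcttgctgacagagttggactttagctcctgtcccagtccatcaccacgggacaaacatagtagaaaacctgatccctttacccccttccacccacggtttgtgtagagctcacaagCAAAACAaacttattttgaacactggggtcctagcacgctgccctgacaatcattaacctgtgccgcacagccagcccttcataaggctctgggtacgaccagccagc
In Irs2 the match lies 37 to 31 bases before the start, in Irs1 there are matches at 111 to 105 and at 32 to 26 bases, and in Igfbp1 at 108 to 102 bases. The E-box, which is part of the longer element that ChREBP binds, was found in Irs1, Irs2 and Igfbp2, and in 6.02% of all windows. In Irs1 it overlaps the cAMP core and the upstream CAAAACA match, and in Irs2 it lies at 44 to 39 bases, just before the CAAAACA match. Neither GTAAACA nor the full cAMP element was found in any of the 13 starts of these genes, where 3.17% and 1.55% of all windows hold them. The core TGACG was found in Irs1, Pik3r1 and Akt2, and in 17.8% of windows. A match is only a run of letters, and binding was not measured.

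**Figure D2:**
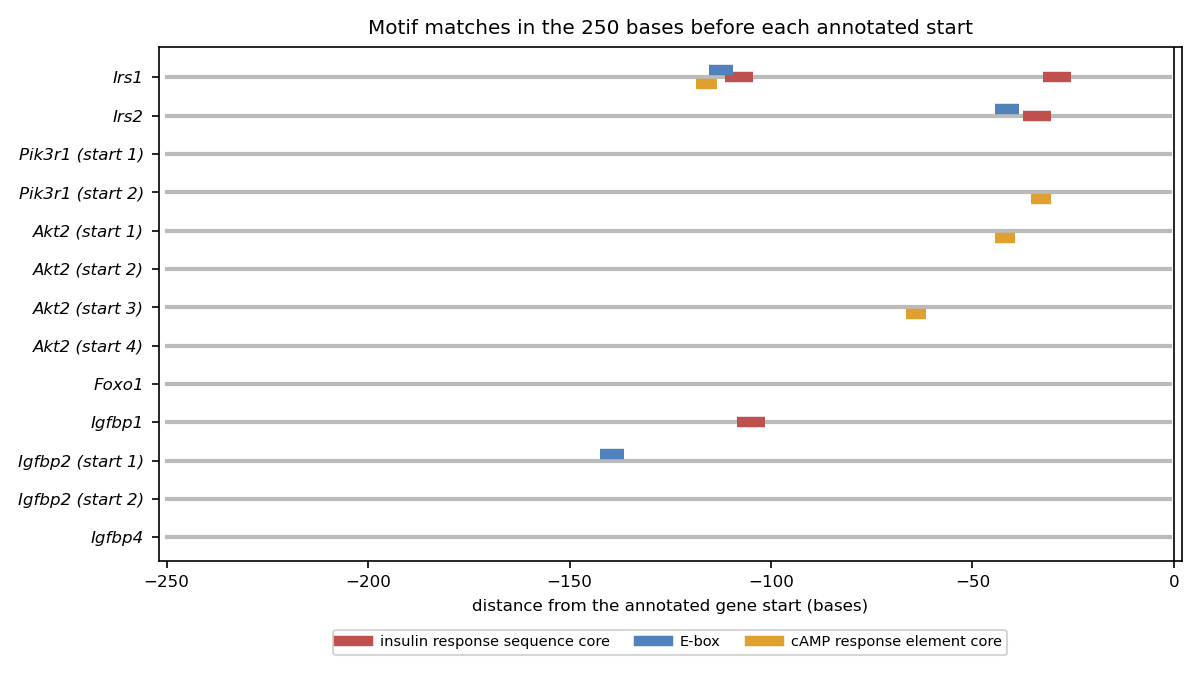
Matches of 3 of the 5 motifs in the 250 bases before each of 13 annotated starts of 8 genes, by distance from the start in bases; the grey lines are the windows, and E-box and cAMP bars are set off vertically so that overlaps can be seen. Irs1, Irs2 and Igfbp1 hold the insulin response core, and the E-box of Irs2 sits beside its core.

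Downstream of the docking proteins, Pik3r1 went the other way. Pik3r1 (probe set 17295796) read 9.53 in the 3-week fructose pool, against 9.002 in the chow pool, and 9.011 in the null pool, against 9.48 in the 2-week WT pool. Both WT fructose pools were high and within 0.05 of each other, and the chow and null pools were low and within 0.01 of each other. The fructose difference was 0.53 and the null difference -0.47, both under 2-fold. Of all genes, 13.7% lay at least as far from 0 as Pik3r1 in the fructose comparison and 19.7% in the null comparison.

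Akt2 (probe set 17475640) read 6.57 in the 3-week fructose pool, against 7.08 in the chow pool, and 6.72 in the null pool, against 6.97 in the 2-week WT pool. The differences were -0.50 and -0.25, and with the 2-week pool over chow the value was -0.11. Foxo1 (probe set 17397497) was highest in the 2-week WT pool, at 7.97, against which the null pool read 7.38. Its other pools lay close together, at 7.37 in the 3-week fructose pool, against 7.52 in the chow pool. The fructose difference was -0.15 with the 3-week pool and 0.45 with the 2-week pool, so its sign depends on the WT fructose pool used. A second Foxo1 probe set, near the floor, read 4.26 in the 3-week fructose pool, against 3.74 in the chow pool, the opposite direction, and 3.75 in the null pool, against 3.79 in the 2-week WT pool.

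Among the binding proteins, Igfbp1 had the widest span of the 9 genes. Igfbp1 (probe set 17247208) read 7.12 in the 3-week fructose pool, against 9.14 in the chow pool, and 9.004 in the null pool, against 8.57 in the 2-week WT pool. The 3-week pool was far below the rest, the 2-week WT pool was intermediate, and the null pool was within 0.13 of chow. The fructose difference of -2.01, a ratio of 4.04, was number 4 from the lowest of all 11717 genes. The 2-week pool over chow gave -0.57. Within WT on fructose, the 3-week pool stood at -1.45 over the 2-week pool, number 31 from the lowest of 11648 genes, of which 1.1% were at least 2-fold lower. The null pool over the 3-week WT pool stood at 1.88, against 0.43 over its own 2-week WT pool.

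Igfbp2, which encodes a binding protein with a preference for IGF-II, had the same order of the WT pools. Igfbp2 (probe set 17214106) read 8.97 in the 3-week fructose pool, against 10.15 in the chow pool, and 9.28 in the null pool, against 9.60 in the 2-week WT pool. Its fructose difference was -1.18, a ratio of 2.27, and number 55 of 11717 from the lowest. The 2-week pool over chow gave -0.55, and the mean of both WT fructose pools over chow -0.87, both under 2-fold. Here the null pool was below the 2-week WT pool by a difference of -0.32, while Igfbp1 was above it. Over the 3-week WT pool the null pool stood at 0.31 for Igfbp2, the opposite sign. Over chow the null pool stood at -0.87 for Igfbp2, at -0.71 for Irs2 and at -0.13 for Igfbp1. The window before the first annotated start of Igfbp2 is shown as the contrast to Igfbp1, since it holds an E-box, in capitals, and no CAAAACA.
Igfbp2, chr1:72824230-72824479, plus strand: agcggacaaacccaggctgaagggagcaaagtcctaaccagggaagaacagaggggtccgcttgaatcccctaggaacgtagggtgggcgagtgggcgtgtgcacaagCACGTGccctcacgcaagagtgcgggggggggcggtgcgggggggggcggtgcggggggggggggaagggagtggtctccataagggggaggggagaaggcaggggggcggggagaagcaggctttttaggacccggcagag
Igfbp4, an abundant binding protein of liver, varied less. Igfbp4 (probe set 17256264) read 10.47 in the 3-week fructose pool, against 10.89 in the chow pool, and 10.46 in the null pool, against 10.66 in the 2-week WT pool. Its differences were -0.41 and -0.20.

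**Figure D3:**
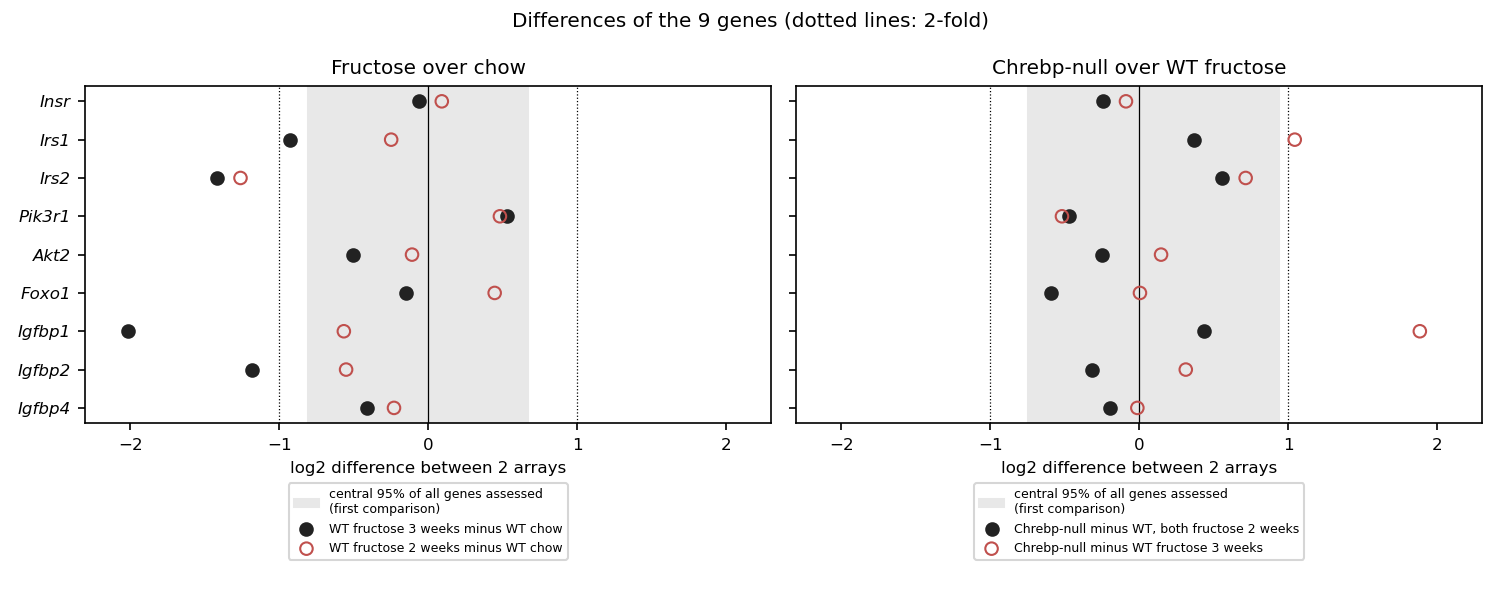
Log2 differences of the 9 genes; filled points are the designed comparisons (left, 3-week WT fructose minus chow; right, Chrebp-null minus 2-week WT fructose), open points use the other WT fructose array, and the grey band holds the central 95% of all genes in the designed comparison. Igfbp1, Irs2, Igfbp2 and Irs1 lie left of the band with the 3-week pool, Irs2 alone does so with the 2-week pool, and on the right no filled point leaves the band.

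Across the pools, the 9 genes fell into different courses. Igfbp1, Igfbp2, Irs1, Akt2 and Igfbp4 were lower at 3 weeks than at 2 weeks of fructose in WT, by differences from -0.18 for Igfbp4 to -1.45 for Igfbp1, with both below chow. For Irs2 the step between those pools was -0.16. The null pool was above both WT fructose pools for Irs1, Irs2 and Igfbp1, and below both for Insr, Pik3r1 and, by 0.01, Igfbp4. The first 3 are also the 3 with a CAAAACA match among the 8 searched, an overlap of small numbers that was not tested. That motif was searched because it is known at Igfbp1 and Irs2, and the grouping followed the values. Nothing is therefore read from the overlap, and Irs1 and Irs2 also hold an E-box. Above is the common direction for the null pool, since 36.5% of all genes were below 0 over the 2-week WT pool and 37.8% over the 3-week one. Over the 2-week WT pool Irs1 stood at only 0.37 and Igfbp1 at 0.43. The genes past 2-fold on fructose include Igfbp2, which has no CAAAACA match. The comparisons that use one array more than once are not separate evidence, and sizes under 0.43 are within the standard deviation found between both WT fructose pools.

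The rest of the insulin and IGF pathway was read from a list of 44 other genes, of which 41 were measured and 36 assessed. None of the 36 differed 2-fold in either comparison, and at shares of 0.64% to 2.03% over all genes so short a list would hold few such genes, so the count of 0 sets the list apart from nothing. Their medians were 0.08 in the fructose comparison and -0.02 in the null comparison, beside -0.05 and 0.10 for all genes. On fructose the lowest were the adaptor gene Shc1 at -0.82, Foxo3 at -0.79, Igfbp5 at -0.74 and Foxo4 at -0.62. Without Chrebp, Sgk2, a kinase related to AKT, stood at 0.79, and Igfbp3, the main IGF carrier of serum, at -0.78. Pik3r3, a further regulatory subunit, stood at 0.94 there, but its WT level of 2.64 was below the floor and the value drops to 0.05 once that level is raised to the floor. Genes of the circulating hormone and its complex were looked up after their values were seen. Igf1 stood at 0.10 on fructose and -0.31 without Chrebp, and Igfals, whose product completes the serum IGF complex, at -0.21 and -0.10. In the 2-week WT pool over chow 3 of the 36 passed 2-fold, Igfals at -1.11, Pik3r3 at -1.30 as read and -0.41 with its dim level at the floor, and Sgk1, another kinase related to AKT, at 1.10. Of all 11622 genes assessed there, 164 were at least 2-fold lower and 91 higher.

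A list drawn up for genes that restrain insulin signalling came next. It also holds the adaptor genes Sh2b1 and Sh2b2 and the insulin clearance genes Ceacam1 and Ide, so its values are not those of inhibitors alone. Of 26 listed, 22 were assessed in the fructose comparison, with a median of -0.10 and 1 gene at least 2-fold lower, the receptor-binding adaptor Grb7 at -1.01. Among all genes assessed there, 1.16% were at least 2-fold lower. Trib3, an AKT inhibitor that also stands under ATF4 control, was at -0.78, and Socs3, which is induced by cytokines, at -0.57. In the null comparison 23 were assessed, the median was -0.03 and none passed 2-fold. Over all genes there, 2.03% were at least 2-fold higher and 1.43% lower. Of the 23, 11 were above 0 and 12 below. Socs3 stood at 0.70 and Trib3 at 0.52, against Ptprf, a receptor phosphatase gene, at -0.61 and Trib2 at -0.55.

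Other genes known as FOXO1 targets in liver were mixed. Of 22 assessed, 1 was at least 2-fold lower on fructose, Bcl6 at -1.67, and 1 higher, Cdkn1a at 1.10, with a median of -0.01. Over all genes, 1.16% were at least 2-fold lower on fructose and 0.64% higher. Bcl6, a repressor, stood at 0.16 in the 2-week WT pool over chow. In the null comparison 2 were at least 2-fold lower, G6pc, the last enzyme of glucose output, at -2.33 and Bcl6 at -1.58, and 1 was higher, Pdk4, an inhibitor of pyruvate oxidation, at 1.30. The median was -0.04. All genes had shares of 1.43% lower and 2.03% higher in that comparison. With the null pool over the 3-week WT pool, G6pc stood at -2.27 and Pdk4 at 1.93, but Bcl6 at 0.25, the opposite sign. Pck1, a gluconeogenic enzyme gene and a classic FOXO1 target, was looked up after its values were seen. It stood at -0.28 in the fructose comparison and -0.09 in the null comparison.

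Genes that insulin is known to induce in liver, many of them lipogenic and also ChREBP targets, had a median of 0.45 on fructose and -1.31 without Chrebp. On fructose 3 of 16 passed 2-fold upward, led by Pnpla3 at no less than 2.97 with its chow level set at the floor, and 1 was lower, the immediate early gene Egr1 at -1.50. Of all genes assessed, 0.64% were at least 2-fold higher there and 1.16% lower. In the null comparison 10 of 16 were at least 2-fold lower, led by Lpin1 at -2.48 and Egr1 at -2.40, and Id1 was higher at 1.11. The shares of all genes in that comparison were 1.43% lower and 2.03% higher. Egr1 stood at 2.46 in the 2-week WT pool over chow, the opposite of the 3-week pool. With the null pool over the 3-week WT pool, Egr1 stood at 1.56, the opposite sign, and Lpin1 at -2.26. The values of this list depend on the WT fructose array. Its median stood at 0.88 in the 2-week WT pool relative to chow, with 7 of 16 at least 2-fold higher and 0 lower, and at -0.71 in the null pool relative to the 3-week WT pool, with 6 lower and 4 higher. Of all genes, 91 of 11622 were at least 2-fold higher and 164 lower in the first of these. In the second, 230 of 11772 were lower and 398 higher.

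Genes induced by cAMP or glucagon, signals of fasting, were mixed. On fructose 2 of 17 were at least 2-fold lower, the nuclear receptor gene Nr4a1 at -1.96 and Sik1, a CREB-induced kinase, at -1.27. Fgf21 was higher by 1.04 as read and by 0.44 with its chow level set at the floor. The median was 0.04. Shares over all genes on fructose were 1.16% at least 2-fold lower and 0.64% higher. In the 2-week WT pool over chow, Nr4a1 stood at -1.28 and Sik1 at -0.18. In the null comparison 2 of 18 were at least 2-fold higher, Fgf21 at 3.50 and Pdk4 at 1.30, G6pc was lower, and Nr4a1 and Sik1 stood at 0.49 and 0.56. The median was 0.07, beside shares over all genes of 2.03% higher and 1.43% lower. Over the 3-week WT pool, 4 of 18 were at least 2-fold higher and 2 lower, with a median of 0.29. Nr4a1 stood at 1.17 and Sik1 at 1.65 there, and of all 11772 genes 398 were higher and 230 lower.

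**Figure D4:**
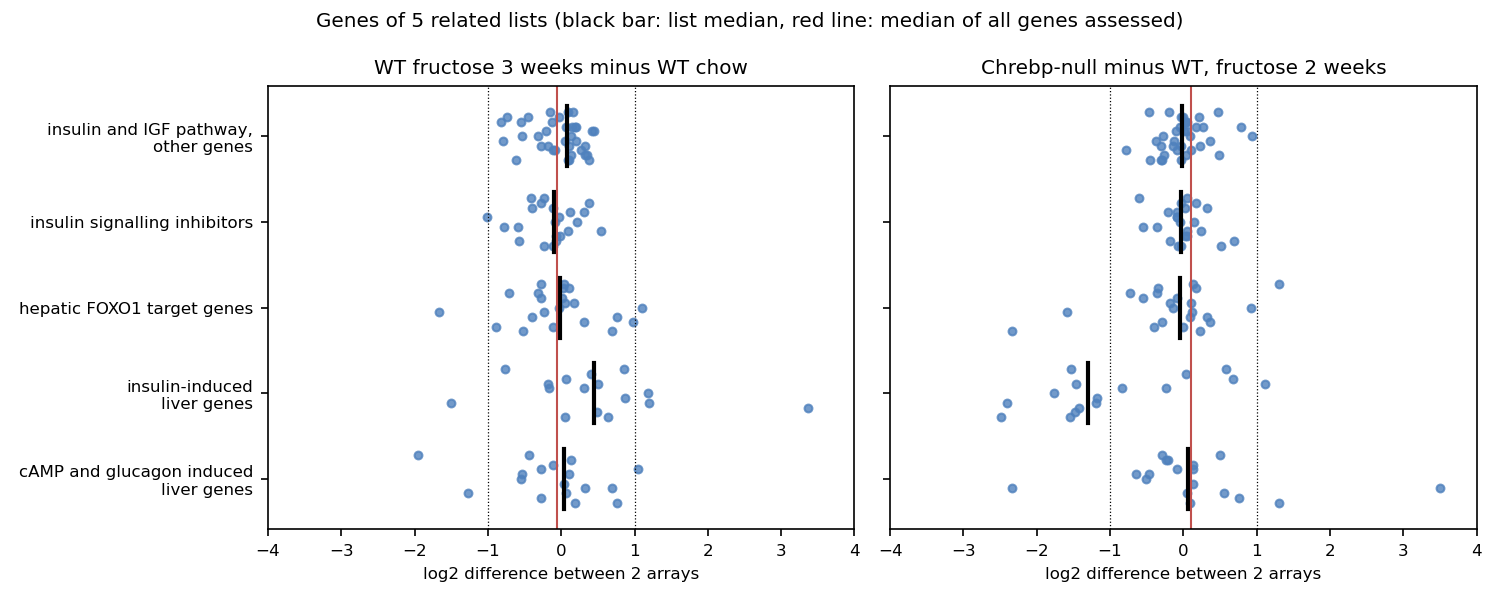
Log2 differences of the assessed genes of 5 related lists, 1 point per gene, in the fructose comparison (left) and the Chrebp-null comparison (right); black bars are list medians, the red line is the median of all genes assessed and dotted lines mark 2-fold. The insulin-induced list has a median of 0.45 on the left and -1.31 on the right, and the medians of the other 4 lists lie close to the red line. Their single genes spread wider, in the cAMP list from -2.33 to 3.50 on the right.

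The genes whose course over the 4 arrays was nearest to 3 of the members were found by the Euclidean distance between levels centred on their own mean, among 11272 other genes. With 4 points this is a description. Nearest to Igfbp1 were Qpctl, a Golgi cyclase of protein ends, at a distance of 0.15, Abcc3, an efflux transporter of bile salt conjugates, at 0.24, and the desmoglein gene Dsg1c at 0.39. Nearest to Irs2 were Ahcy, which breaks down S-adenosylhomocysteine, at 0.14, the endoplasmic reticulum stress gene Creld2 at 0.24 and the ubiquitin-conjugating enzyme gene Cdc34 at 0.27. Nearest to Igfbp2 were Junb, a subunit of AP-1, at 0.13, Sec61b of the protein translocon at 0.15 and the aldehyde oxidase gene Aox3 at 0.20. Sec61b was above the floor in the chow pool alone.

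Markers of the cell types of liver were read beside these values. The 11 hepatocyte markers measured, such as Alb and Apoa1, had a mean level of 10.78 in the 3-week fructose pool, against 10.81 in the chow pool, and 10.89 in the null pool, against 10.93 in the 2-week WT pool. In the same order the 12 endothelial markers had 7.67, against 7.43, and 7.49, against 7.71, and the 12 stellate cell markers 6.51, against 6.66, and 6.73, against 6.80. The 12 macrophage markers had 7.07, against 7.19, and 7.63, against 7.44, with Marco 2.66 higher in the null pool. The median difference of the macrophage markers there was -0.08, and 7 of the 12 were below 0, so the higher mean goes against most of the markers. The endothelial gene Lyve1 stood at -1.01 there. Of these 4 lists none had a gene past 2-fold in the fructose comparison, where 0.64% of all genes were higher and 1.16% lower. The 4 cholangiocyte markers assessed had a median of 0.45 in the null comparison, with Prom1 at 0.74, Sox9 at 0.60, Krt7 at 0.31 and Epcam at -0.27. Krt7 lay near the floor, at 3.35 to 3.66. In the fructose comparison their median was 0.15, with Prom1 at 0.60, Krt7 at 0.25, Epcam at 0.05 and Sox9 at -0.64. Among the other cholangiocyte markers Krt19, Cldn7 and Cftr lay below the floor in every pool, and among lymphocyte markers Cd3d, Cd8a, Ms4a1 and Klrb1c did.

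Sex-linked and sex-biased genes were read in the null pool over its WT pool. Xist stood at -1.53, Eif2s3y, Kdm5d and Uty, which are Y-linked, at 0.84, 0.76 and 0.53, and the median of 14 male-biased liver genes was -1.12, with all 14 below 0. The median of 11 female-biased liver genes was -0.11, with 5 above 0 and 6 below. In the fructose comparison Xist stood at -0.07, Eif2s3y at -0.12, Kdm5d at 0.04 and Uty at 0.64, and the medians were 0.16 for 15 male-biased and -0.09 for 13 female-biased genes. Between the WT fructose pools, 3 over 2 weeks, these lists had medians of 0.52 and 0.49, and the female-biased Cyp3a16 stood at 7.34 as read and 6.11 with its dim level at the floor. Between the same pools Xist stood at 0.21, Eif2s3y at -0.51, Kdm5d at -0.35 and Uty at -0.20. The part of sex proportions and of cell mixture in the values of the 9 genes was not tested.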

How the data were processed

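The authors deposited log2 expression values for 41345 probe sets, made with affy and RMA per the submitters' processing notes. RMA subtracts background, normalizes arrays and summarises probes, and it compresses large differences. RNA was pooled by group before labelling, per the labels' protocols. No version or genome build is given in the sources used here, nor whether all 4 arrays were normalized jointly. The values were used as deposited. Array files hold no read depth.

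Gene names came from the platform annotation, in which 23521 carry 1 gene symbol, 1814 several and 16010 none. Groups came from the labels. With 1 array per group no test was run, and differences are one array minus another. The 9 genes, the gene lists and the comparisons were chosen with earlier results of these data known. Named were the 9 genes, Mlxipl, up to 4 genes with the largest differences of each list and comparison, and the 3 nearest courses to Igfbp1, Irs2 and Igfbp2. Not every gene taken is printed. Promoter letters came from RefSeq. Protein motifs that had been planned were not analysed here. The counting of 2-fold differences was tested on simulated data, which checks the code and gives the measured differences no error. The alternatives tried were the absence of a floor, a 75 percentile floor, centring, quantile normalization, removal of the trend with level (lowess, fraction 0.3), averaging probe sets, dim levels set at the floor, 1.5-fold and 3-fold thresholds, and exchange of the WT fructose array for the other or for their mean. Python 3.11.15, numpy 2.4.6, pandas 2.3.3, statsmodels 0.14.6 and matplotlib 3.10.9 were used.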

Additional observations from a re-analysis of the deposited data

How the results depend on the processing

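With the same arrays, that is under centring, quantile normalization, trend removal, averaged probe sets and dim levels at the floor, Igfbp1 in the fructose comparison ran from -2.06 to -1.97, Irs2 from -1.46 to -1.36 and Igfbp2 from -1.22 to -1.13, all past 2-fold, and none of the 9 genes passed 2-fold in the Chrebp-null comparison. Among these settings, dim levels at the floor could change none of the 9 genes, since all lay above it. Averaging could change only Irs1 and Foxo1, the genes with a second probe set of their own. Such fixed values are among the 126 counted below. The choice of the WT fructose array mattered more. With the other array, 1 gene of the 9 (Irs2) was past 2-fold lower in the fructose comparison and 2 (Igfbp1 and Irs1) past 2-fold higher in the null comparison, and with the mean of both arrays 2 (Igfbp1 and Irs2, without Igfbp2) were lower on fructose and 1 (Igfbp1, at 1.16) was higher in the null comparison. Over all genes, the other array gave 164 lower on fructose and 398 higher in the null comparison, and the mean of both gave 77 and 226. A 3-fold threshold left 1 gene lower on fructose, beside 15 of all 11717 genes. A 1.5-fold threshold added Irs1 (-0.93) to the lower genes on fructose, beside 826 of 11717. In the null pool it gave 1 gene (Foxo1) lower, beside 441 of 11631. Foxo1 stood at -0.59 there, at -0.32 with averaged probe sets and at 0.005 with the other WT array. Of 126 values of single genes under the alternatives, 11 moved by more than 0.43, the standard deviation found between both WT fructose pools, 10 of them with another WT array and 1, Irs1, with averaged probe sets. Exchange of the WT array shifts a value by all or part of that gene's own difference between both WT fructose pools. The 10 are therefore not separate results. They belong to Igfbp1, Irs1, Igfbp2 and Foxo1, whose differences for 3 over 2 weeks were -1.45, -0.68, -0.63 and -0.60. The cause of those pool differences was not tested.

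Over all genes, a 1.5-fold threshold gave 418 higher and 826 lower in the fructose comparison and 1065 and 441 in the null comparison, and a 3-fold threshold gave 14 and 15, and 46 and 54. The floor at the 75 percentile gave 40 higher on fructose, and 87 higher and 110 lower in the null pool. With the mean of both WT arrays 38 were higher and 77 lower on fructose. With the other WT array 398 were higher in the null pool, and 140 with the trend removed. The medians of the pathway list moved by no more than 0.1 under any alternative. For the other lists, whose alternatives were added after seeing the data, 44 of 231 medians moved by more, among them those of the insulin-induced list, which with the other WT array were 0.88 on fructose and -0.71 without Chrebp. No paired analysis was possible because each group has 1 array. Signal over background per probe was not used here, so the floor stands in for it.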
